A study of Bos taurus and Ovis aries and Capra hircus with 18 samples.

Results

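Goat brain was set against goat muscle at the level of messenger RNA, enriched with oligo(dT) beads and sequenced in 3 libraries per tissue. These 6 libraries were taken by their titles out of 18, the others being the same tissues of cattle and sheep. Goat brain and goat muscle are the only groups used here, apart from 1 comparison of the tissue difference with those of the other species, and each group is frozen tissue at the adult stage, with no treatment named. Breed, age, sex, brain region and the muscle sampled are not given in the labels used here, nor is what the letters A, B and C stand for, so p-values measure the spread between these libraries, which may be technical. All 27271 goat gene models were counted, and 15825 with enough reads were tested. In bulk tissue, fewer cells of a type and less RNA per cell cannot be told apart.

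Brain tissue is built from neurons, which signal through synapses, and from glia, the oligodendrocytes that wrap axons in myelin, the astrocytes that clear transmitter and potassium, and the microglia. Skeletal muscle is built from long fused fibres packed with sarcomeres, in which myosin thick filaments slide along actin thin filaments when calcium leaves the sarcoplasmic reticulum. Fibres come in slow, oxidative types and fast types, and the types carry different isoforms of myosin, troponin and the calcium pump. Many enzymes of energy metabolism also exist as one gene used in brain and a related gene used in muscle.

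Library totals ranged from 20730803 to 29496749 counts, with 17318 to 19236 genes detected. A gene symbol was given to 12289 of the tested genes (77.7%) by matching goat gene models to cattle ones on exon structure and gene order, so every symbol below is an inference from structure. Levels are CPM, counts per 1000000 counts of the library total after trimmed-mean (TMM) scaling, and SD is over 3 libraries. The first principal component held 90.9% of the variance and parted the tissues. The second held 5.16% and set muscle C apart from muscle A and B. Rank correlation was 0.989 between muscle A and B, 0.948 and 0.939 between muscle C and these, and 0.962 to 0.972 among the brain libraries.

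The tissue labels were checked on marker genes. SNAP25, which drives fusion of synaptic vesicles with the membrane (chromosome 13, 3277995 to 3366145, goat build not given in the sources used here), reached 2474, 4452 and 1865 CPM in brain A, B and C and 1.06, 0.951 and 1.08 CPM in muscle A, B and C. RBFOX3, the neuronal nuclear protein, stood at 79.4, 103 and 81.5 CPM in brain and 0.212, 0.250 and 0.180 CPM in muscle. GFAP, the astrocyte filament, averaged 1993 CPM (SD 1482) in brain against 0.493 CPM (SD 0.171) in muscle. On the muscle side, ACTA1, skeletal actin, read 35900, 26030 and 33750 CPM in muscle and 2.16, 7.53 and 8.13 CPM in brain, and DES, the muscle filament desmin, averaged 12190 CPM (SD 391) against 23.3 CPM (SD 16.3). None of these markers overlapped between tissues. SYT1 and TTN carried no symbol here and were not checked.

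**Figure D1:**
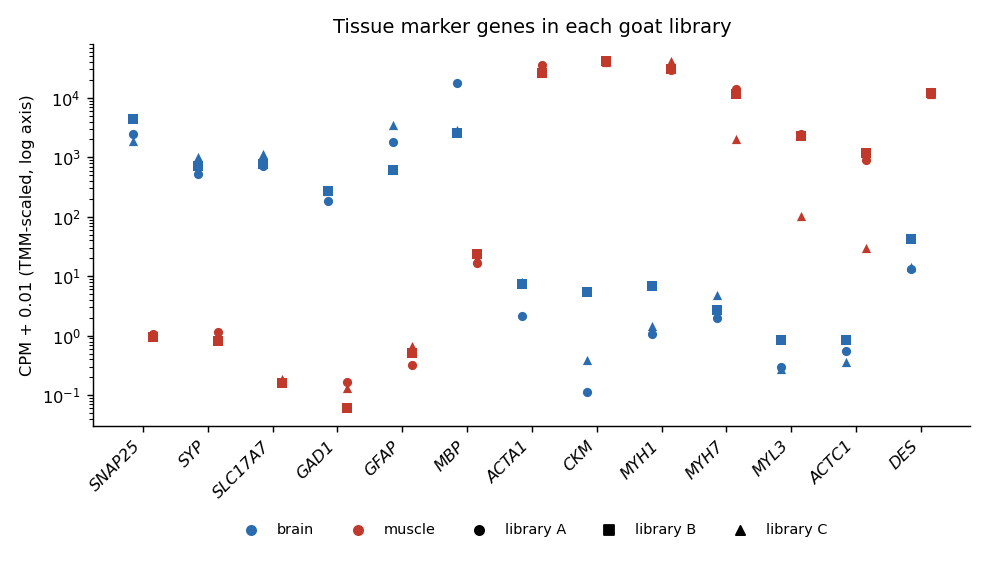
CPM plus 0.01 on a log axis for 13 marker genes, 6 of brain and 7 of muscle, with blue points for brain libraries, red points for muscle libraries and a shape for each letter. Every brain marker lies above its muscle points and every muscle marker the reverse, and MYH7, MYL3 and ACTC1 are lower in muscle C than in muscle A and B.

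Over all genes tested, 4972 (31.4%) were higher in brain and 3669 (23.2%) were higher in muscle, together 54.6%. A call needed a log2 difference of at least 1 and, by edgeR's quasi-likelihood test with Benjamini-Hochberg (BH) adjustment, p under 0.05. Without muscle C the counts were 5162 and 3931 of 16316. Of the brain calls 4735 (95.2%) were also called without muscle C, and of the muscle calls 3389 (92.4%), and 0 genes were called in opposite directions. At a log2 difference of at least 5 stood 1551 genes on the brain side, 31.2% of its calls, and 433 on the muscle side, 11.8% of its calls. Among called genes, 381 brain genes had 0 counts in all muscle libraries, and 61 muscle genes had 0 counts in all brain libraries. Scaling on library totals alone, with no TMM factor, moved the median log2 of all genes from 0.12 to 0.86 and the counts to 7100 and 2023, a brain share of 77.8% of calls against 57.5%. Differences near 1 on the log2 scale are therefore relative to the scaling, and those of 5 and more are far beyond that shift.

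**Figure D2:**
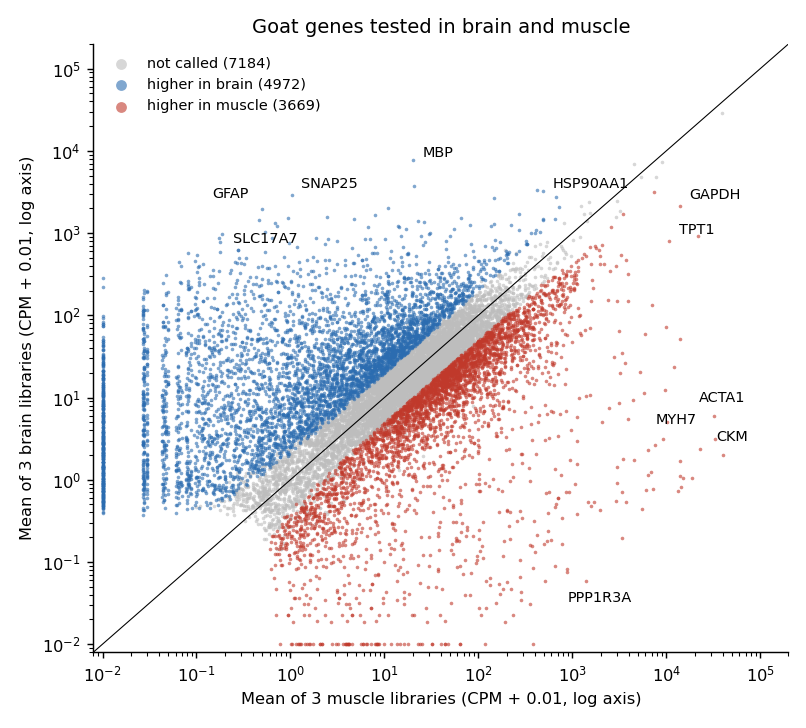
Each point is a tested goat gene, with its mean CPM plus 0.01 over 3 muscle libraries on the x axis and over 3 brain libraries on the y axis, both log axes, coloured by the call (4972 higher in brain, 3669 higher in muscle). The line marks equal levels, and columns at the left edge are brain genes with 0 to a few counts in muscle.

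Some genes were read in 1 tissue and almost not in the other. CEND1, a neuronal differentiation protein, held 184, 209 and 265 CPM in brain with 0 counts in every muscle library, at least 4074-fold higher against a floor of 3 counts over the muscle group, which covers counting error only. TMEM130, a membrane protein, held 381.5, 500.1 and 817 CPM in brain and 0.0529, 0.1001 and 0.0600 CPM in muscle, a log2 difference of 12.85 ± 0.55 (SE, edgeR, BH adjusted p = 6.43e-07). PPP1R3A, which targets a phosphatase to muscle glycogen, held 1467, 1488 and 1208 CPM in muscle and 0, 0.148 and 0 CPM in brain, -14.91 ± 0.81 (adjusted p = 1.10e-06). These groups lay far apart in all 6 libraries. Levels were also ranked per exonic kilobase among genes with a symbol, which leaves out the genes of the mitochondrial genome. The highest in brain was MBP, the myelin basic protein, at 13300 CPM per kb, followed by S100B, a calcium-binding protein of glia, at 3017. In muscle MYL11, the fast regulatory light chain, stood at 36960 CPM per kb and ACTA1 at 35480. Muscle C raised the first, and without it the means were 23330 for MYL11 and 34440 for ACTA1. Without brain A, MBP fell to 4707 CPM per kb, still above S100B at 2320.

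At the other end, some calls ended without muscle C as the difference fell just under 1. VPS35L, of endosomal recycling, moved from 1.11 to 0.96 on the log2 scale, and TOMM6, of the mitochondrial import pore, from -1.06 to -0.98. Of the calls lost, 237 were brain calls and 280 muscle calls, and for 115 and 114 of these the adjusted p no longer passed. Without muscle C 427 brain calls and 542 muscle calls were gained.

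Neuronal genes formed a uniform group on the brain side. All 17 tested members of a list of core neuron genes were higher in brain, with a median log2 difference of 9.42 (0.12 over all genes tested), and 17 of 17 without muscle C. NEFM, the medium neurofilament of axons, averaged 543 CPM (SD 169) in brain and 0.0920 CPM (SD 0.0370) in muscle, a log2 difference of 12.48 ± 0.50 (SE, edgeR, BH adjusted p = 5.51e-07). NEFL, the light neurofilament, held 475, 696 and 612 CPM in brain and 0.159, 0.1001 and 0.240 CPM in muscle. It was higher by 11.79 ± 0.43 and INA, alpha-internexin, by 11.78 ± 0.45 (adjusted p = 4.68e-07 and 5.11e-07). MAP2, which marks dendrites, stood at 804 CPM (SD 223) in brain and 3.12 CPM (SD 2.04) in muscle. At the smaller end of the list was CAMK2A, a kinase of excitatory synapses, at 3763, 3263 and 2997 CPM in brain and 460, 404.5 and 393 CPM in muscle, higher by 2.99 ± 0.29 (adjusted p = 2.57e-05).

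The machinery of transmitter release and its receptors followed the same direction. Of the vesicle release list 19 of 20 tested members were higher in brain, and SYNGR1, a vesicle protein, was not called at 91.4 and 68.7 CPM. Among glutamate genes 25 of 29 were higher in brain and 2 were higher in muscle. SLC17A7, the vesicular glutamate transporter of cortical neurons, held 714, 783 and 1137 CPM in brain and 0.159, 0.1502 and 0.180 CPM in muscle, 12.36 ± 0.44 apart (adjusted p = 4.68e-07), and its relative SLC17A6 averaged 24.2 and 0.0534 CPM. SHANK1, a scaffold of the postsynaptic density, read 537, 260 and 479 CPM in brain against 0.0529, 0.1502 and 0.120 CPM in muscle. Both members called the other way were scaffold proteins. HOMER2 stood at 178 CPM (SD 93.8) in muscle and 7.51 CPM in brain, and HOMER3 at 125 CPM (SD 46.6) and 24.2 CPM, with log2 differences of -4.56 ± 0.50 and -2.36 ± 0.35 (adjusted p = 6.01e-05 and 3.73e-04).

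Inhibitory signalling was represented by 22 tested genes of GABA and glycine, of which 21 were higher in brain. GAD1, which makes GABA, stood at 185, 267 and 268 CPM in brain and 0.159, 0.05005 and 0.120 CPM in muscle, 11.05 ± 0.44 apart (adjusted p = 5.51e-07). GABRA5, a receptor subunit, reached 55.7, 59.5 and 109 CPM in brain with 0 counts in every muscle library, at least 1412-fold higher. GABRD, which forms receptors outside synapses, was in the same way at least 678-fold higher. GPHN, the anchor of these receptors, was not called at 49.4 and 27.3 CPM.

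Peptide and channel genes lay on the same side. Of granin and neuropeptide genes 19 of 20 tested members were higher in brain. PCSK2, which cleaves peptide precursors, was at least 991-fold higher with 0 counts in muscle. VIP, a peptide of cortical interneurons, held 38.8, 69.0 and 27.4 CPM in brain and 0 counts in muscle, at least 789-fold higher. All 20 potassium and pacemaker channel genes tested were higher in brain (19 without muscle C), with a median log2 difference of 7.36. Of sodium and calcium channel genes 22 of 26 were higher in brain and 1, CACNB1, the beta subunit of the muscle calcium channel, was higher in muscle at 336 against 61.1 CPM. All 26 genes of synaptic adhesion were higher in brain, among them the neurexin NRXN2 at 351 CPM in brain and 1.65 CPM in muscle, and NCAM1, a neural cell adhesion molecule, at 556 and 17.2 CPM.

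**Figure D3:**
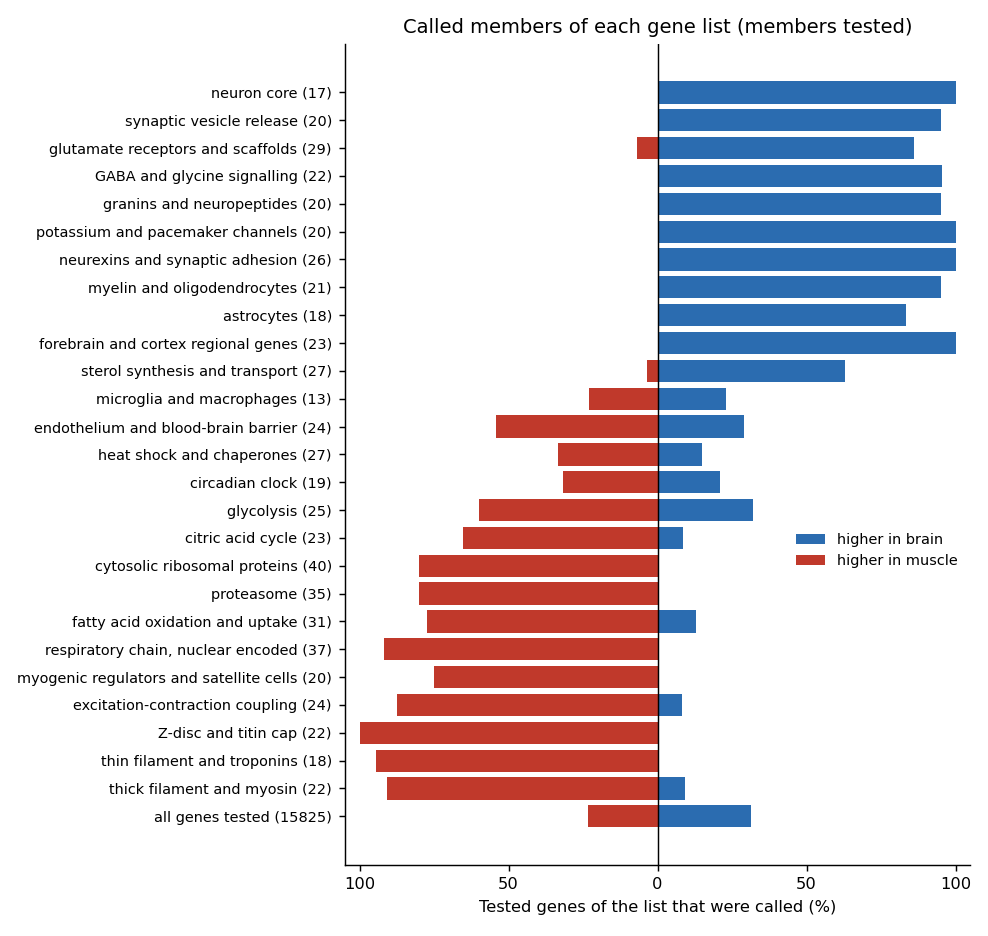
Share of tested members called higher in brain (blue, right) and higher in muscle (red, left) for 26 gene lists, with the number tested in brackets and all 15825 genes in the bottom row. Neuronal lists lie near 100% on the right and sarcomere lists near 100% on the left, against 31.4% and 23.2% over all genes.

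Of myelin genes 20 of 21 tested were higher in brain, with a wide spread between the brain libraries. The exception, ASPA, which cleaves acetylaspartate, averaged 6.41 CPM in brain and 9.73 CPM in muscle. MBP, a structural protein of myelin, held 17550, 2561 and 2861 CPM in brain A, B and C against 16.4, 23.9 and 20.7 CPM in muscle, 8.56 ± 0.96 apart (edgeR, BH adjusted p = 6.91e-05). Brain A was the high library. Summed over the 21 named members the myelin list reached 29740 CPM in brain A, 6844 in brain B and 6378 in brain C, while the neuron list summed to 10610, 13710 and 10630 CPM. BCAS1, of early myelinating oligodendrocytes, read 1088, 191 and 150.5 CPM, and ERMN, an oligodendrocyte cytoskeletal protein, 233, 64.0 and 54.0 CPM. The brain region of each library is not given in the labels used here, and how far it moves these values was not tested.

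Of astrocyte genes 15 of 18 were higher in brain. GFAP stood at 1797, 618 and 3563 CPM in brain and 0.318, 0.5005 and 0.660 CPM in muscle, 11.98 ± 0.87 apart (adjusted p = 4.93e-06). MLC1, an astrocyte membrane protein, read 343, 408.5 and 552 CPM in brain and averaged 0.263 CPM in muscle. SLC1A3, a glutamate uptake carrier, stood at 1236 CPM (SD 451) and 14.1 CPM (SD 2.22). AQP4, the water channel of astrocyte endfeet, missed the threshold with all libraries (2.19 ± 0.97, adjusted p = 0.0779) and passed it without muscle C (1.59, adjusted p = 2.06e-03). Its levels in muscle A, B and C were 23.8, 27.8 and 0.360 CPM. Microglia and macrophage genes split, with 3 of 13 higher in brain, 3 higher in muscle and 7 not called. The shares over all genes tested were 31.4% and 23.2%, so these counts do not set the list apart. CSF1R, the receptor that microglia depend on, and TREM2, a microglial lipid receptor, averaged 145 and 23.1 CPM in brain and 10.9 and 0.592 CPM in muscle, whereas MRC1, a marker of tissue macrophages, averaged 2.01 and 12.3 CPM.

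Genes known for one part of the brain were listed by that part. All 23 tested forebrain and cortex genes were higher in brain (21 without muscle C), with a median log2 difference of 7.96. TBR1, a factor of deep cortical layers, held 89.7, 125 and 73.1 CPM in brain. EMX1, of the cerebral cortex, held 15.2, 24.0 and 19.6 CPM, and NEUROD6, of excitatory cortical neurons, 13.9, 19.1 and 60.3 CPM with 0 counts in muscle. Of 12 striatal genes 9 were higher in brain, with and without muscle C. The hindbrain and cerebellum list had 12 of 21 named members tested, 8 of them higher in brain with a median of 3.91, or 10 of 13 with a median of 5.73 without muscle C. GABRA6, of cerebellar granule cells, had 1 count in brain and was not tested. Of 27 named members of the thalamus, hypothalamus and midbrain list 15 were tested, 4 higher in brain and 9 higher in muscle. The shares over all genes tested were 31.4% and 23.2%. The median log2 difference of this list was -1.36, and without muscle C 4 and 9 of 19 were called. PRKCD, a kinase named on that list, read 9.97, 7.05 and 140 CPM in brain A, B and C, so brain C alone was high, and its call (3.80, adjusted p = 0.0125, edgeR) ended without muscle C at a difference of 3.71 (adjusted p = 0.0565). It also ended with DESeq2 (3.77), limma-voom (2.55) and the replicate letter as a block (2.35), and without brain C the difference was 1.19.

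On the muscle side the sarcomere was the leading group. All 22 tested Z-disc genes, 17 of 18 thin filament genes and 20 of 22 thick filament genes were higher in muscle, with median log2 differences of -8.45, -10.71 and -10.62, and these counts were the same without muscle C. Creatine kinase CKM, which buffers ATP beside the sarcomere (chromosome 18, 54007193 to 54018765), is no member of these lists and stood at 40100, 41130 and 40870 CPM in muscle and 0.106, 5.47 and 0.376 CPM in brain, -14.36 ± 1.69 (edgeR, BH adjusted p = 9.0e-05). MYOT, a Z-disc protein, held 3635, 4300 and 2101 CPM in muscle against 0, 0.554 and 0 CPM in brain (-14.32 ± 1.28, adjusted p = 1.75e-05). UNC45B, the chaperone that folds muscle myosin and also outside these lists, stood at 823, 918 and 892 CPM against 0.0527, 0.0369 and 0.107 CPM, -13.56 ± 0.44 (adjusted p = 4.68e-07). Members called the other way were MYL4, an atrial and embryonic light chain, at 9.59 CPM in brain and 1.52 CPM in muscle, and MYBPC3, the cardiac myosin binding protein, at 1.16 and 0.0701 CPM. The thin filament gene not called was TNNT2, cardiac troponin T, at 1.18 and 4.19 CPM.

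Brain B carried more of the muscle transcripts than brain A and C. Over 39 named genes that were called in muscle, averaged at least 1000 CPM there and under 10 CPM in brain, the sum was 136 CPM in brain B against 69.8 and 72.4 CPM in brain A and C, and brain B was the highest brain library for 32 of the 39. The same genes summed to 308700 CPM in muscle. In CPM per 1000000 CPM of the muscle sum this was 441 in brain B against 226 and 235. CKM and MYOT were also highest in brain B among the brain libraries, and the part of this in their differences was not tested. In the reverse direction, over 77 named brain genes of at least 200 CPM in brain and under 1 CPM in muscle the sums were 26.2, 23.1 and 34.4 CPM in muscle A, B and C.

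Excitation-contraction coupling links the nerve impulse to calcium release. Of its 24 tested genes 21 were higher in muscle and 2 were higher in brain. RYR1, the calcium release channel, held 4137, 3697 and 3018 CPM in muscle and 15.03, 34.7 and 29.4 CPM in brain, -7.10 ± 0.47 (adjusted p = 2.75e-06). CACNG1, a subunit of the voltage sensor, averaged 282 CPM in muscle with 2 counts in all of brain. STAC3, which couples the sensor to the channel, read 945, 720 and 1123 CPM in muscle and averaged 0.698 CPM in brain. The brain calls were FKBP1A, a ryanodine receptor partner, at 77.3 and 31.4 CPM (1.30, and 0.99 without brain C, which ends the call), and PVALB, a calcium buffer also used by cortical interneurons, at 39.6 CPM (SD 23.3) and 6.04 CPM (SD 3.60), 2.71 ± 0.55 (adjusted p = 2.36e-03). Of dystrophin complex and laminin genes 18 of 25 were higher in muscle and 2 were higher in brain.

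Genes that set and regulate muscle fate were also higher in muscle, 15 of 20 on the myogenic list and 0 in brain. Without muscle C the counts were 17 of 22 in muscle and 1 in brain. MYOD1, the founding myogenic factor, held 69.4, 74.8 and 42.6 CPM in muscle and 0.106, 0.221 and 0.188 CPM in brain (-8.49 ± 0.44, adjusted p = 9.52e-07). MYF5, of satellite cells, had 0 counts in brain and 4.92, 6.66 and 7.44 CPM in muscle, at least 215-fold higher. MEF2C, a factor shared by neurons and muscle, was not called at 660 and 785 CPM. For growth control and protein turnover 18 of 28 were higher in muscle, among them MSTN, myostatin, the brake on muscle growth, at 31.4, 20.6 and 11.7 CPM in muscle, and TRIM63, a ubiquitin ligase of atrophy, at 142, 143 and 271 CPM. Of 32 limb and trunk position genes listed, 10 were named and 7 tested. Of these, 5 were higher in muscle and 1, MEIS2, in brain, against 23.2% and 31.4% over all genes tested. Without muscle C 6 of 9 were higher in muscle, and under library totals alone 42.9%. Among the 5 was PITX1, the hindlimb factor, at 46.5, 46.25 and 2.699 CPM in muscle with 0 counts in brain, and muscle C was far below muscle A and B.

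Related genes, many of them of energy metabolism, divided by tissue. Of 38 listed pairs of related genes with a brain and a muscle form, 33 had both symbols. In 17 of them the members were called in opposite directions. These include pairs outside energy metabolism, namely RYR2 and RYR1, SCN2A and SCN4A, CACNA1A and CACNA1S, MYH10 and MYH9, and NEFL and DES. Pairs were listed for having a form of each tissue, and no share over other gene pairs is given here. ENO2, neuronal enolase, held 452, 638 and 681 CPM in brain and averaged 0.522 CPM in muscle, while ENO3, muscle enolase, averaged 2.29 CPM in brain and held 6299, 5668 and 7044 CPM in muscle. ENO2 was 99.7% of the pair per exonic base in brain and 0.00923% in muscle. The tissue differences were 10.10 ± 0.50 and -11.44 ± 0.54 (adjusted p = 8.09e-07 and 7.37e-07).

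Other steps of sugar metabolism also had a form on each side. ALDOC, brain aldolase, was higher in brain by 10.74 ± 0.56 and ALDOA, the muscle form, was higher in muscle at -4.55 ± 0.46 (adjusted p = 9.89e-07 and 3.54e-05), yet ALDOA still stood at 927 CPM in brain beside 1206 CPM of ALDOC. PYGB and PYGM, the brain and muscle glycogen phosphorylases, differed by 5.73 ± 0.39 and -5.74 ± 0.35. HK1, the hexokinase of brain, and HK2, that of insulin-sensitive tissue, differed by 2.64 ± 0.24 and -6.05 ± 0.60, and per exonic base HK1 still made up 51.8% of the pair in muscle. LDHB, the lactate dehydrogenase of oxidative tissue, was higher in brain by 1.21 ± 0.36 (adjusted p = 0.0176). LDHA stood at -3.997 ± 0.35 and, without muscle C, at -4.24. The LDHB call ended without muscle C (0.91, adjusted p = 0.0309), without brain B (0.99) or without muscle A (1.08). In those fits this pair, counted among the 17, was not called in opposite directions. Over the whole glycolysis list, 15 of 25 were higher in muscle and 8 were higher in brain, against 23.2% and 31.4% over all genes tested.

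**Figure D4:**
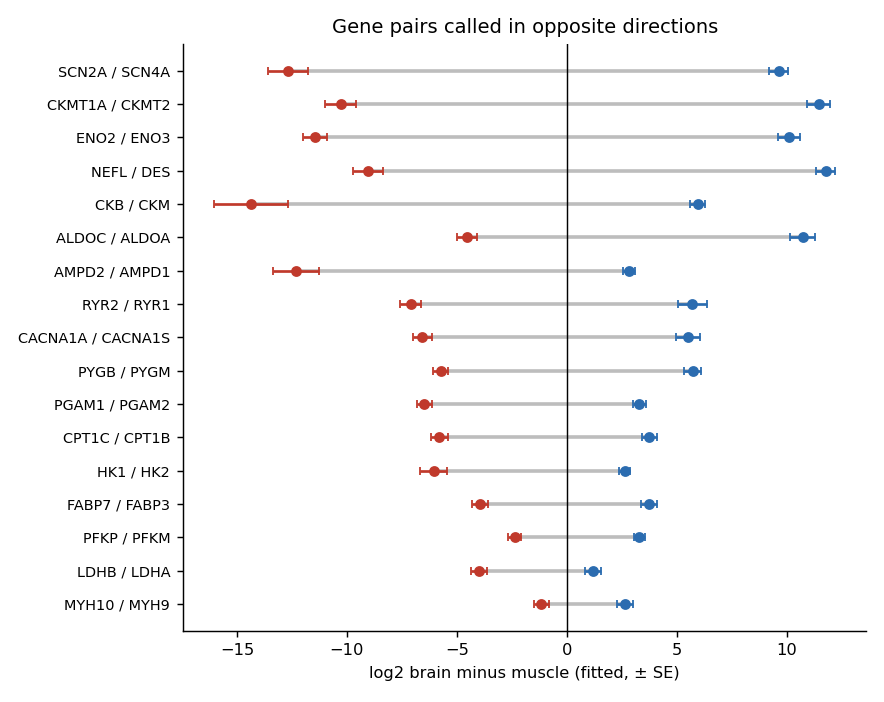
Fitted log2 brain minus muscle with its standard error for the 17 pairs of related genes called in opposite directions, blue for the member higher in brain and red for the member higher in muscle. The widest pair is SCN2A and SCN4A, the sodium channels of neurons and of muscle fibres, at 9.64 and -12.67.

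The creatine and purine pairs had a form on each side too. CKB, the brain creatine kinase, held 1244, 1765 and 1198 CPM in brain and averaged 22.6 CPM in muscle, against CKM at -14.36. The mitochondrial forms CKMT1A and CKMT2 differed by 11.46 ± 0.53 and -10.29 ± 0.70 (adjusted p = 7.37e-07 and 3.45e-06). AMPD1, the muscle AMP deaminase, was at 1991 CPM in muscle and 0.415 CPM in brain, whereas AMPD2 was at 7.23 and 52.0 CPM. The glucose carriers also divided, with SLC2A1 of the blood-brain barrier at 184 and 6.14 CPM in brain and muscle and SLC2A4, the insulin-regulated carrier, at 0.767 and 164 CPM. In the ribosomal protein L3 family only the muscle form was called. RPL3, a ribosomal protein, was not called at 372 and 253 CPM, and RPL3L, its muscle relative, was at 0.682 CPM in brain and 526, 482.5 and 583 CPM in muscle (-9.61 ± 0.35, adjusted p = 4.68e-07).

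Mitochondrial energy genes of the nucleus were higher in muscle. Of the respiratory chain 34 of 37 tested members were higher in muscle with a median log2 of -2.10, a count that fell to 23 of 37 under library totals alone. Among heart and muscle isoforms, COX6A2 differed by -11.19 ± 0.58 and COX7A1 by -4.53 ± 0.30 (adjusted p = 9.59e-07 and 3.01e-06). The mitochondrial genome did not follow. Of its 33 listed genes 22 were tested, 5 were higher in brain and 2 were higher in muscle, with a median log2 of -0.06. Over all genes tested the shares were 31.4% and 23.2%. The brain calls, other than a gene of 1573 bases (1.60), were entries of 67 to 69 bases at 5.54 CPM or less in every library. The muscle calls were genes of 684 and 681 bases (-1.42 and -1.24). The share of the mitochondrial genome in all counts was 2.29% to 4.02% in brain and 1.497% to 3.16% in muscle. Of citric acid cycle genes 15 of 23 were higher in muscle (9 under totals alone), and 2 were higher in brain, PC, pyruvate carboxylase, at 81.4 and 14.8 CPM, and OGDHL, a brain form of oxoglutarate dehydrogenase, at 52.8 CPM and 1 count.

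Fat use and sterol synthesis lay on opposite sides. Of fatty acid oxidation and uptake genes 24 of 31 were higher in muscle and 4 were higher in brain. UCP3, a mitochondrial carrier of muscle, held 202.5, 316 and 623 CPM in muscle with 0 counts in brain, at least 12610-fold higher. CD36, which takes up fatty acids, read 655, 1089 and 1153 CPM against 4.77, 5.24 and 2.06 CPM (-7.91 ± 0.51, adjusted p = 2.41e-06). Of sterol synthesis and transport genes 17 of 27 were higher in brain and 1 was higher in muscle. SQLE, squalene epoxidase, stood at 101, 93.2 and 98.6 CPM in brain and 3.02, 3.90 and 3.72 CPM in muscle, and CYP46A1, which clears cholesterol from neurons, at 318 CPM (SD 54.5) and 0.725 CPM (SD 0.416). APOE, the lipid carrier of astrocytes, averaged 1544 and 65.8 CPM.

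Protein synthesis and breakdown genes were higher in muscle by smaller steps, and their calls leaned on the scaling. Of cytosolic ribosomal proteins 32 of 40 were higher in muscle (14 under library totals alone, with 1 in brain), with a median log2 of -1.43. TPT1, an abundant growth-linked protein, read 9270, 8833 and 14390 CPM in muscle and 895, 758 and 737 CPM in brain (-3.77 ± 0.38, adjusted p = 3.30e-05). Of proteasome genes 28 of 35 were higher in muscle (9 under totals alone), led by the activator PSME4 at 165 and 20.2 CPM. Without muscle C 26 were higher in muscle and 1 was higher in brain. These lists also differed within muscle, since muscle C was the highest muscle library for 38 of 40 ribosomal proteins and 25 of 35 proteasome genes. No share over all genes tested is given for this. Muscle C also ran high in genes with under 1 kb of exons at large (median log2 0.36 over muscle A and B). The part of gene length in these counts was not tested.

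Chaperones, stress and early response genes had no single direction. Their counts stand beside 31.4% higher in brain and 23.2% higher in muscle over all genes tested. Of heat shock genes 9 of 27 were higher in muscle, 4 were higher in brain and 14 were not called, and under library totals alone 8 and 9. The small heat shock proteins HSPB1 and HSPB6 were 635 and 507 CPM in muscle and 26.5 and 8.06 CPM in brain, while HSP90AA1, the general chaperone, was not called at 2377 and 1514 CPM. For hypoxia, glucocorticoid and stress genes 12 of 21 were higher in muscle and 3 were higher in brain, among them TXNIP, a brake on glucose uptake, at 796 and 43.1 CPM. Immediate early genes gave 5 in brain and 6 in muscle of 17 (6 and 1 under totals alone). These counts were 3 and 7 without muscle C or without muscle A, and 3 and 3 without brain C. Muscle B was high in them, with a summed level of 1422 CPM against 531 and 374 in muscle A and C. FOS read 74.1, 320 and 30.4 CPM in muscle A, B and C and 31.4, 61.1 and 28.3 CPM in brain, so the groups overlapped. It was not called with all libraries (-1.81, adjusted p = 0.0599, edgeR) and was higher in muscle without muscle C (-2.33, adjusted p = 7.32e-03). Clock genes gave 4 in brain and 6 in muscle of 19 (7 and 2 under totals alone).

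Cells shared by both tissues were checked with marker lists, beside 31.4% higher in brain and 23.2% higher in muscle over all genes tested. Of 24 vessel genes 13 were higher in muscle and 7 were higher in brain, against 8 and 8 without muscle C and 7 and 8 under totals alone. Without brain B, and again without brain C, 8 were higher in muscle and 7 in brain. Muscle C was the highest muscle library for 19 of the members, and no share over all genes tested is given for this. PECAM1, an endothelial adhesion molecule, read 121, 157 and 288 CPM in muscle and 36.1, 20.4 and 22.2 CPM in brain. MFSD2A, a lipid transporter of the blood-brain barrier, averaged 33.2 CPM in brain and 0.257 CPM in muscle. Fibrillar and basement membrane matrix gave 13 of 21 higher in muscle and 1, SPARC, a matrix glycoprotein, higher in brain (1.47, adjusted p = 0.0261, edgeR), a call that ended without brain C (0.92), brain A (1.49), muscle A (1.22) or muscle B (1.31). Peripheral nerve genes gave 5 of 11 in muscle and 3 in brain, and 2 and 4 under totals alone. Smooth muscle markers gave 5 of 13 higher in muscle, lymphocyte and mast cell markers 6 of 16 and adipocyte markers 6 of 10, with 0, 2 and 1 higher in brain. The part of such cells in other results was not tested.

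Of 24 RNA-binding factors tested 14 were higher in brain and 2 were higher in muscle, or 14 and 4 without muscle C. SRRM4, the factor of neuronal microexons, held 8.88, 8.46 and 11.9 CPM in brain with 1 count in muscle, and CELF4 averaged 114 and 0.708 CPM. RBM20, which splices titin, stood at 72.2, 77.1 and 44.3 CPM in muscle and 0.375 CPM in brain (-7.42 ± 0.39, adjusted p = 9.89e-07), and MBNL1 at 171 and 30.6 CPM. QKI, PTBP1 and PTBP2 were not called.

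Called genes also differed in size, which the test does not use. Genes that span 300 kb or more of the genome were higher in brain in 229 of 394 cases (58.1%) and higher in muscle in 41 (10.4%). Under 10 kb the shares were 27.4% and 27.4% of 5427 genes. The median span was 26.01 kb for brain calls, 14.6 kb for muscle calls and 18.1 kb for genes not called. Exonic lengths differed less, with medians of 2089, 1654 and 1876 bases.

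Muscle C differed from muscle A and B in fibre type genes. Over 15825 tested genes it lay at least 2-fold above both other muscle libraries for 552 and at least 2-fold below both for 1411, together 12.4%, against 0.335% and 0.714% for muscle A and B and 1.33% to 2.06% for the brain libraries. MYH7, the slow myosin heavy chain (chromosome 10, 79930386 to 79950357), read 13830, 11700 and 2049 CPM in muscle A, B and C. MYL3, the slow light chain, read 2423, 2249 and 104 CPM, and ACTC1, cardiac actin, 893, 1187 and 30.2 CPM. In 10 of 11 pairs of slow and fast forms the fast form was highest in muscle C, and the exception was ATP2A1, the fast calcium pump, at 11210, 9681 and 9523 CPM. MYL11, the fast regulatory light chain, read 12360, 11440 and 32740 CPM and TNNI2, fast troponin I, 4472, 4600 and 12410 CPM.

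Shares within isoform families put numbers on this, for pairs listed after muscle C had been seen to differ. Among 6 myosin heavy chains, per exonic base, MYH7 held 23.0%, 21.9% and 3.33% in muscle A, B and C. MYH1, of fast 2X fibres, held 49.5%, 58.0% and 68.3%, MYH2, of fast 2A fibres, 25.8%, 18.5% and 28.0%, and MYH4, of fast 2B fibres, 1.38%, 1.51% and 0.2004%. The genes MYH8, MYH4, MYH1, MYH2 and MYH3 lie side by side on chromosome 19 (29125425 to 29337126), are close in sequence and were named by their order, so reads and names may be split between neighbours. In 11 of 11 pairs of a slow and a fast isoform the fast share was highest in muscle C. The share of TNNC2 over TNNC1 was 63.1%, 57.6% and 86.7%, that of the pump ATP2A1 over ATP2A2 71.0%, 60.4% and 90.2%, and that of the alpha-actinin ACTN3 over ACTN2 45.5%, 32.9% and 76.0%. These are descriptions of 1 library against a pair of others, with no test.

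**Figure D5:**
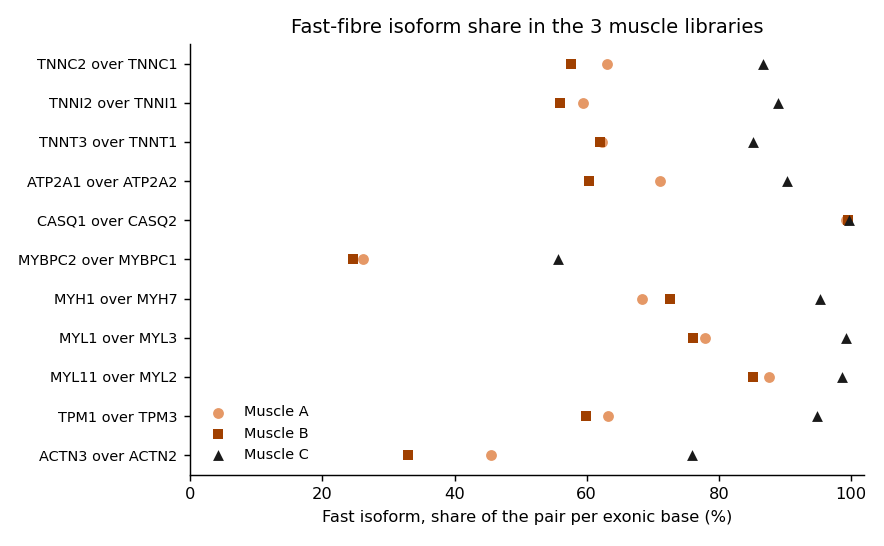
Share of the fast-fibre isoform in 11 isoform pairs, per exonic base, in muscle A, B and C. Black triangles for muscle C lie to the right of both other libraries in every pair, for example 86.7% against 63.1% and 57.6% for TNNC2 over TNNC1, and CASQ1 over CASQ2 lies above 99% in all.

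Other genes that set muscle C apart were not fibre isoforms. PADI2, a protein-modifying enzyme, read 8.74, 31.4 and 408.5 CPM in muscle A, B and C and 244, 116 and 174 CPM in brain, so that it was not called with all libraries and was higher in brain by 3.12 without muscle C. PFKFB3, a glycolytic regulator, read 52.8, 22.1 and 360 CPM, and was not called with all libraries and was higher in brain without muscle C (1.08, adjusted p = 0.0231, edgeR), and HMOX1, a heme-degrading stress enzyme, 6.14, 10.01 and 68.7 CPM. ZIC1, a positional factor, read 2.91, 0 and 41.6 CPM. Exonic length moved with this library. Among genes of at least 20 CPM in muscle, the median log2 of muscle C over the mean of muscle A and B was 0.36 for 1364 genes with under 1 kb of exons and -0.04, -0.07 and 0.00 for the longer classes, while muscle B over muscle A gave 0.10, 0.06, 0.01 and -0.04. The labels name neither the muscle nor a measure of RNA quality, and their part in these values was not tested.

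Single libraries also stood out in brain for a few genes. CDHR1, a photoreceptor and olfactory bulb cadherin, read 3.72, 6.79 and 98.0 CPM in brain A, B and C, and SLC14A1, a urea carrier of astrocytes, 8.17, 12.6 and 165 CPM. PENK, proenkephalin, read 68.4, 69.2 and 10.9 CPM, and CARTPT, a hypothalamic and limbic peptide, 14.7, 51.4 and 3.70 CPM. In these 4 genes every brain value lay above every muscle value.

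The goat log2 difference, brain minus muscle, was compared with the mean of the cattle and sheep differences over 13005 genes matched in the 3 species. It was shifted towards brain in goat for 414 genes (3.18%) and towards muscle for 596 (4.58%), together 7.77%. The contrast was tested by edgeR's quasi-likelihood test with all 18 libraries. Its sign gives the direction of the shift and not the size of the tissue gap. Counts fell to between 218 and 371 and between 302 and 504 when a single goat library was left out, with 218 and 302 without brain A, 259 and 367 without brain C and 280 and 365 without muscle C. With the replicate letter as a block they were 164 and 232. A call against the mean need not hold against each species. Against cattle alone the counts were 911 and 870, and against sheep alone 371 and 588. MSRA, for example, was called at 3.06 with 0.45 against sheep alone. Each species was counted on its own gene models. CPM in this comparison are per total of the matched genes, with TMM scaling over all 18 libraries, and so are on another scale than the goat CPM above. FBP1, a gluconeogenic enzyme, showed -8.77 ± 0.53, but its goat model had 10562 exonic bases against 1613 in cattle and 2199 in sheep. Among 4856 genes with exonic lengths within 1.5-fold in the 3 species, 139 were shifted towards brain and 208 towards muscle (7.15%). Among the other 8149 genes the counts were 275 and 388 (8.14%).

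Among those of like length, chosen after the model lengths had been seen, THEM4, a mitochondrial thioesterase, was 66.9 CPM (SD 2.72) in goat muscle and 7.34 CPM (SD 0.487) in goat brain, against 5.57 and 14.6 CPM in cattle and 30.9 and 10.5 CPM in sheep, a contrast of -3.11 ± 0.33 (edgeR, BH adjusted p = 4.72e-05, and 1.51e-04 without muscle C). TMEM182, a membrane protein of muscle, was at 394, 287 and 193 CPM in goat, cattle and sheep muscle. In their brains it was at low levels of 0.171, 0.802 and 2.41 CPM (-3.70 ± 0.44, adjusted p = 1.12e-04). GPX8, an endoplasmic reticulum peroxidase, was at 23.8, 24.2 and 17.1 CPM in goat, cattle and sheep muscle, and 1.15, 8.07 and 9.56 CPM in their brains (-3.17 ± 0.39, adjusted p = 1.61e-04). In the other direction ACOX2, a peroxisomal oxidase, was 16.5 CPM in goat muscle against 165 CPM in cattle and 9.20 CPM in sheep muscle, with 18.2, 4.96 and 1.62 CPM in brain, a contrast of 3.92 ± 0.46 (adjusted p = 1.12e-04). SEL1L3 was 42.2, 45.8 and 25.7 CPM in goat, cattle and sheep brain and 10.3, 109 and 53.3 CPM in muscle (3.19 ± 0.39, adjusted p = 1.46e-04).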

How the data were processed

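Gene-level counts of goat brain and goat muscle (3 libraries each) were used as deposited. Per the submitters' processing notes, reads were trimmed with Trimmomatic 0.39, aligned with STAR 2.7.6 and counted with featureCounts, and the only build named is that of cattle, so the goat build is not given in the sources used here. How reads with several placements or strand were counted is also not given. The deposited values are whole-number counts per gene.

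Counts were scaled by TMM and tested with edgeR 4.0.16 (robust quasi-likelihood, filterByExpr, R 4.3.3) over all genes passing the filter, and p-values were adjusted by Benjamini-Hochberg. A gene was called at an adjusted p below 0.05 and a log2 difference of at least 1. DESeq2 1.42.0, limma-voom 3.58.1, other scalings, filters and thresholds, a block on the letter and each library left out were alternatives. The script was tested on simulated counts.

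Symbols came from goat-to-cattle matches of gene models and a RefSeq table of the cattle assembly ARS-UCD2.0. Of 795 matches of the first, stricter pass held out, 794 received a match again in a later pass, 99.7% of them with the same partner. The 5311 tested genes with symbols only from later passes were not among those held out. The share therefore does not measure the error of their names. Of 1267 list symbols 1041 were found and 986 tested. Genes were named by a rule: the largest differences, genes near 0 in 1 tissue, the highest levels per kb, leading and contrary list members, pairs, and genes that set a library apart. Further list members were named after their values were seen. The members and lists were chosen with earlier results of these data known. Fitted differences and CPM ignore counting error of zeros, so genes at 0 are given as bounds. Results for some genes are not reported here.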

Additional observations from a re-analysis of the deposited data

Results flagged for a closer look

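The log2 difference between brain and muscle in goat was tested against the mean of the other 2 species over matched genes (edgeR). It was shifted towards brain in goat for 414 genes and towards muscle for 596. A call need not hold against each species, with 911 and 870 against cattle alone and 371 and 588 against sheep alone. Among genes with gene models of like length, the contrast was -3.11 for THEM4, -3.70 for TMEM182 and -3.17 for GPX8, and 3.92 for ACOX2 and 3.19 for SEL1L3 on the log2 scale. Each species was counted on its own gene models, and the part of this in the contrasts was not tested.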

How the results depend on the processing

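The count of genes higher in brain was 4972, and ran from 4655 to 5162 with a library left out, with 3475 at a log2 difference of at least 2 and 7100 with library totals alone. Genes higher in muscle numbered 1844 at a log2 difference of at least 2, 2023 with library totals alone and 2431 in a test against a 2-fold difference, against 3669, and 3335 to 3931 with a library left out. With the replicate letter as a block the counts were 4828 and 3473. Correlations of deviations from the tissue mean between brain and muscle of the same letter were 0.198, -0.197 and -0.0406 for A, B and C. With muscle C apart, muscle A and B gave like values, 0.198 and 0.167 with brain A and -0.179 and -0.197 with brain B. These correlations therefore cannot decide whether the letters pair the tissues.

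For the contrast with the mean of the other species, counts are given as shifted towards brain and towards muscle in goat. These counts were 164 and 232 with the replicate block and 139 and 208 with gene models of like length. With a goat library left out they were 218 to 371 and 302 to 504. Against cattle alone they were 911 and 870, against sheep alone 371 and 588, and without sheep brain C 616 and 907. The last 2 kinds of setting, like length and sheep brain C, were chosen after seeing the data, and the cause was not tested.

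Of 676 list values over 52 lists 655 kept their side and size, 10 moved and 11 reversed. With library totals alone, the percent of members higher in muscle was 29.2 for endothelium, 18.2 for peripheral nerve, 29.6 for heat shock, 5.88 for immediate early genes, 10.5 for clock genes and 26.7 for translation paralogues. With only the stricter symbol matches it was 0 for lymphocytes, 33.3 for phosphocreatine, 12.5 for heat shock and 25 for immediate early genes. The percent of neuromuscular junction genes higher in brain was 42.9 to 46.2 with a library left out, and the list median turned from 0.21 to between -0.56 and -0.09 without muscle B or any brain library, and to -0.19 over all genes with a count. The log2 difference of PFKFB3 ran from -1.49 to 1.08, the highest without muscle C.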
